A study of Mus musculus with 36 samples.

Results

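Gm17122, Coro1c and the coronin genes Coro1a, Coro1b, Coro2a and Coro2b were followed in single neurons of the mouse midbrain. These are 6 of the 55359 genes in the deposited table. They were chosen by name: Gm17122 because its level by tissue and driver had stood out in these same libraries, Coro1c because it lies on the opposite strand of the same place in the genome, and the rest because they are coronins. The pattern of Gm17122 by tissue and driver is therefore given as a description, with no test.

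Each of the 36 libraries is 1 neuron, and the cells fall into 18 clones of 2 cells. A clone is a pair of neurons from 1 radial glia progenitor, labelled on embryonic day 12 by MADM, in which Cre-driven recombination between chromosomes colours the daughter cells of a dividing progenitor. The genotype M11GTTG-Fz10-CreER gave 15 cells (11 clones) from the tissue labelled sSC and 7 cells (7 clones) from dSC. The genotype M11GTTG-Sox2-CreER gave 7 cells (5 clones) from sSC, 5 cells (4 clones) from dSC and 2 cells (2 clones) from PAG. The tissue names are taken to mean superficial superior colliculus, deep superior colliculus and periaqueductal grey. All the cells share the MADM cassettes and a mixed C57/Bl6, FVB and CD1 background, and both sexes were used. No source used here gives the age of each cell's animal or says which clones share one. CreER marks only those progenitors in which the driver was active at labelling, so each group holds the neurons of such progenitors and not a random draw of the tissue. In 9 clones, 7 of Fz10-CreER and 2 of Sox2-CreER, 1 cell lay in sSC and its sibling in dSC.

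Coronins are actin-binding proteins built around a beta-propeller of WD repeats. Coro1a, Coro1b and Coro1c belong to the group that binds actin filaments and the Arp2/3 complex, which starts branches on them. Coro1b is known to restrain Arp2/3 and to bring the phosphatase slingshot to cofilin, which severs filaments. Coro1a is best known in blood and immune cells and is also made in neurons. Coro2a is known as a component of a nuclear corepressor complex, and Coro2b is known for its expression in the brain. Gm17122 (ENSMUSG00000090458) is a noncoding gene annotated as antisense, with no function known to the annotation used here.

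In the GENCODE M21 annotation of GRCm38, Gm17122 occupies chr5:113842601-113843116 on the plus strand. Its 516 bases hold exons of 290 and 82 bases and an intron of 144 bases. Coro1c (ENSMUSG00000004530) occupies chr5:113842436-113908758 on the minus strand, 66323 bases. The whole of Gm17122 lies inside the last exon of Coro1c, at chr5:113842436-113844468, and inside the 1916 bases of that exon's 3′ UTR. The nearest Gm17122 base is 165 bases from the end of the Coro1c transcript. Every base of an unspliced Gm17122 read could therefore also be a base of Coro1c mRNA, read on the other strand. No source used here says whether the authors counted by strand, so reads of the shared stretch cannot be assigned to either gene from these values alone.

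The sequences where Gm17122 is spliced are shown because a read across the joined exons matches the annotated Gm17122 transcript and not the Coro1c transcript on either strand, while other Gm17122 reads match both. All are from the GRCm38 chromosome sequence and 30 bases long. In the first, bases chr5:113842876-113842890 are joined to chr5:113843035-113843049 on the plus strand, and capitals mark the second exon.
Gm17122 spliced junction: ttacaacactacccaGTCGTCTGCTTCCAT
The next runs from the first exon into the intron at chr5:113842876-113842905, with the intron in capitals, and its reverse complement is part of the Coro1c transcript.
Gm17122 exon 1 into its intron: ttacaacactacccaGTCAGTCCACACACT
The last is the other end of the intron at chr5:113843020-113843049, again with the intron in capitals.
Gm17122 intron into exon 2: TCTGACACTACCCAGgtcgtctgcttccat
The intron starts with GT and ends with AG. The 11 bases acactacccag occur at both boundaries. The deposited values do not separate spliced from unspliced reads, so it was not tested which form was measured.

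**Figure D1:**
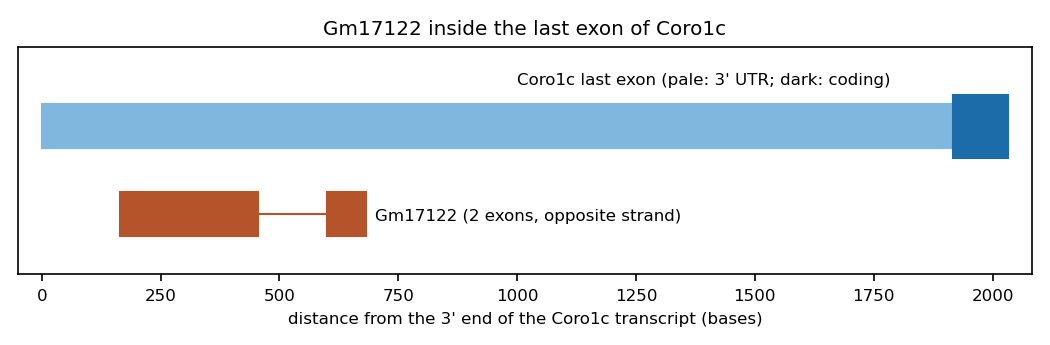
Position of Gm17122 against the last exon of Coro1c, in bases from the 3′ end of the Coro1c transcript (x axis). Blue bars are the 3′ UTR (pale) and coding part (dark) of Coro1c, red boxes the exons of Gm17122 and the red line its intron; all of Gm17122 lies within the UTR.

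The values are the authors' expression signal, named TPM of exon plus intron, which sums to 2000000 in every cell. Levels are compared between genes on this per-length scale, whose exact formula no source used here gives. A cell counts as expressing a gene at a value of 1 or more, and a 0 can be a transcript that was not captured. The number of genes at 1 or more ran from 2661 to 16769 per cell with a median of 12058. The lowest, 2661, was the sSC cell of clone B of Fz10-CreER, and the next lowest cell had 6180. The summed level of 9 neuron markers was 523 to 6541 in Fz10-CreER sSC cells and at least 2760 in every other group. Transcripts of microglia and oligodendrocytes were also present in the cells, with summed levels of 383 to 17703 over 15 microglia markers and 859 to 21664 over 9 oligodendrocyte markers. The part of such RNA in the results below was not tested. No pair of libraries correlated above r = 0.694 over 14613 genes on the log2 scale.

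Gm17122 was listed at 0 in 11 of 36 cells, and in the other 25 its value was at least 437.7, with no cell between. Gaps above 0 occurred in other genes too. Coro1a had 5 cells at 0 and a lowest value above 0 of 21.7. Arpc1a, a gene of the Arp2/3 complex, had 2 cells at 0 and a lowest value above 0 of 165. Read depth is unknown, so how many transcripts such a lowest value stands for cannot be told. By group, Gm17122 had 0, 448 and 7309 (lowest, median and highest) in Fz10-CreER sSC cells, against 438, 873 and 7567 in Fz10-CreER dSC cells. In Sox2-CreER cells it had 588, 2663 and 4951 in sSC, against 0, 0, 0, 0 and 3959 in the 5 dSC cells. The PAG cells had 926 and 2036. So Gm17122 was present in 8 of 15 sSC and 7 of 7 dSC cells of Fz10-CreER, and in 7 of 7 sSC and 1 of 5 dSC cells of Sox2-CreER, and the ranges of sSC and dSC overlapped for both drivers. As means of clones, log2(value + 1) was 4.84 ± 5.26 in Fz10-CreER sSC (SD, n = 11) and 10.19 ± 1.40 in dSC (n = 7). In Sox2-CreER it was 11.05 ± 0.87 in sSC (n = 5) and 1.49 ± 2.99 in dSC (n = 4). In falling order the groups were Sox2-CreER sSC, Fz10-CreER dSC, Fz10-CreER sSC and Sox2-CreER dSC. Only the gap of 5.35 between the middle pair was larger than the larger SD of its neighbours, 5.26. These values are what the gene was chosen for.

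Coro1c was a gene of low to middling level in the same cells. It had 0, 7.47 and 295 (lowest, median and highest) in Fz10-CreER sSC cells, against 14.1, 29.98 and 59.9 in Fz10-CreER dSC cells. In Sox2-CreER cells it had 11.5, 23.3 and 60.7 in sSC, against 0, 0.389, 33.3, 69.9 and 82.1 in the 5 dSC cells. The PAG cells had 23.9 and 43.1. All Fz10-CreER dSC and Sox2-CreER sSC cells expressed Coro1c, most Fz10-CreER sSC cells lay below them, and 1 of those, a cell of clone S at 295, lay above every other cell of the series. The clone means of log2(value + 1) were 2.67 ± 1.93 in Fz10-CreER sSC (SD, n = 11) and 4.90 ± 0.81 in dSC (n = 7), and 4.67 ± 0.89 in Sox2-CreER sSC (n = 5) and 3.89 ± 2.87 in dSC (n = 4). From highest to lowest the groups were Fz10-CreER dSC, Sox2-CreER sSC, Sox2-CreER dSC and Fz10-CreER sSC, and no neighbours in that order differed by more than the larger of their SDs.

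**Figure D2:**
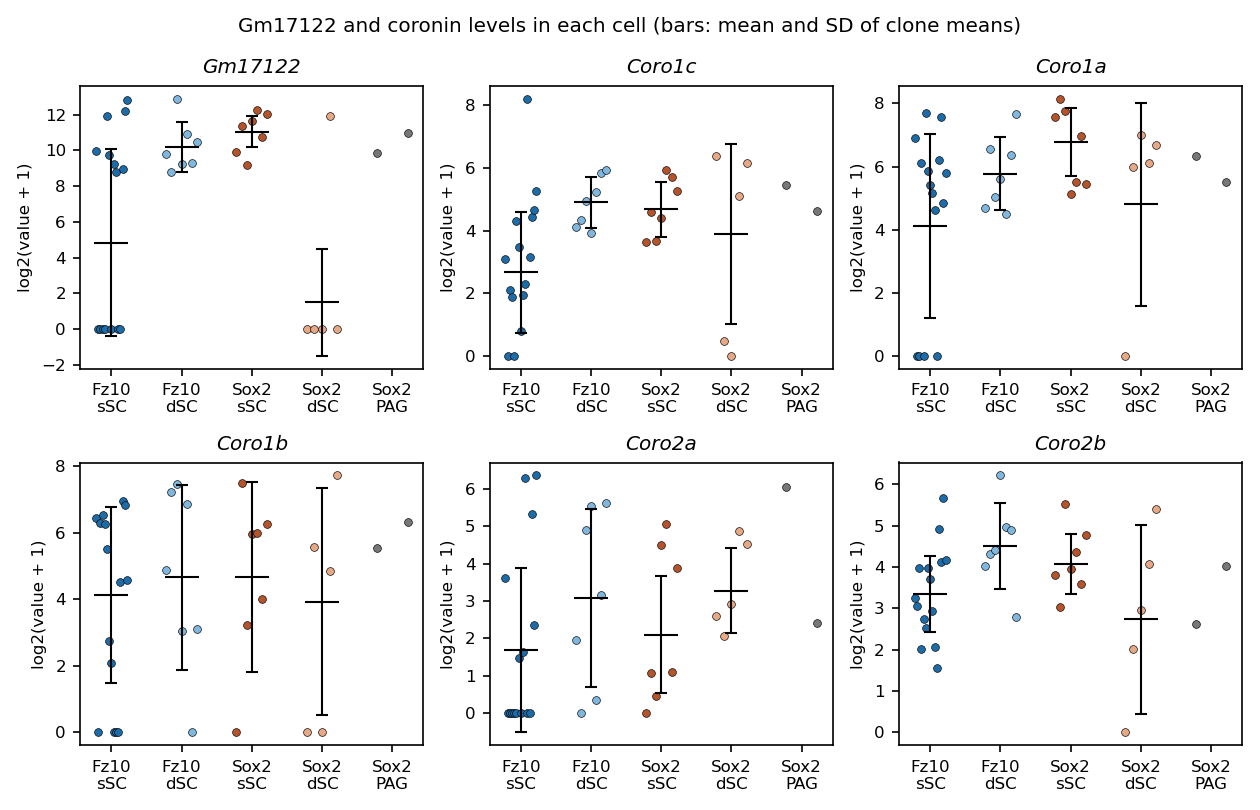
Level of each of the 6 genes in every cell (points), as log2(value + 1) of the deposited signal (y axis), by driver and tissue (x axis); lines and bars are the mean and SD of clone means, with none for PAG (2 cells). Gm17122 splits into cells at 0 and cells above 8. Over all cells Coro1a has a smaller gap, from 0 to a value of 21.7, and the other coronins have lower values above 0.

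Whether Gm17122 follows Coro1c was asked first by presence. Both genes reached 1 in 25 cells, Coro1c alone in 6, neither in 5 and Gm17122 alone in 0. The genes therefore matched in 30 of 36 cells. Each was common, Gm17122 in 25 cells and Coro1c in 31, so many matches would arise without any relation. No count for unrelated genes was set beside it. With 10 as the limit the counts were 22 with both, 3 with Gm17122 alone, 3 with Coro1c alone and 8 with neither. Coro1c ran from 2.80 to 60.7 with a median of 23.3 in the 25 cells with Gm17122, against 0 to 295 with a median of 2.65 in the 11 cells without it. In 8 of those 11 cells Coro1c was under 10, against 3 of the 25. The 3 exceptions were high: 295 in a Fz10-CreER sSC cell of clone S, and 82.1 and 69.9 in Sox2-CreER dSC cells of clones D and Q. Cells with Gm17122 also had more genes, a median of 12313 at 1 or more, against 9297 in the cells without it.

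By level, the rank correlation of Gm17122 with Coro1c over the 36 cells was rho = 0.460 (Pearson r = 0.468 on log2 values), which is given as a description since siblings share a clone and all values of a cell share its library. Leaving out each clone in turn gave 0.418 to 0.571. On the log2 scale the 3 cells with Coro1c at 0 tied as farthest from its median, and without them rho was 0.356. On the scale of the values the 2 farthest were the cells of clones S and D with 295 and 82.1, both without Gm17122, and leaving them out gave 0.657. The rank correlation differed in size among the groups. Over the 22 sSC cells rho was 0.676, and over the 12 dSC cells 0.107. It was 0.589 over the 22 Fz10-CreER cells and 0.158 over the 14 Sox2-CreER cells, with no test of these differences. Pearson r on log2 values differed less, with 0.512 in sSC and 0.405 in dSC, and 0.496 in Fz10-CreER and 0.410 in Sox2-CreER. Within tissue and driver, rho was 0.584 in the 15 Fz10-CreER sSC cells and 0.429 in the 7 Fz10-CreER dSC cells. It was 0.714 in the 7 Sox2-CreER sSC cells. In the 5 Sox2-CreER dSC cells rho was 0. Only 1 of them had Gm17122, the cell with the middle Coro1c value, 33.3, while those with lower and with higher Coro1c had none. These 5 cells are part of both the dSC and the Sox2-CreER values above. Among the 25 cells with both genes, Gm17122 was 11.3 to 252 times Coro1c on the per-length scale, with a median of 84.9.

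**Figure D3:**
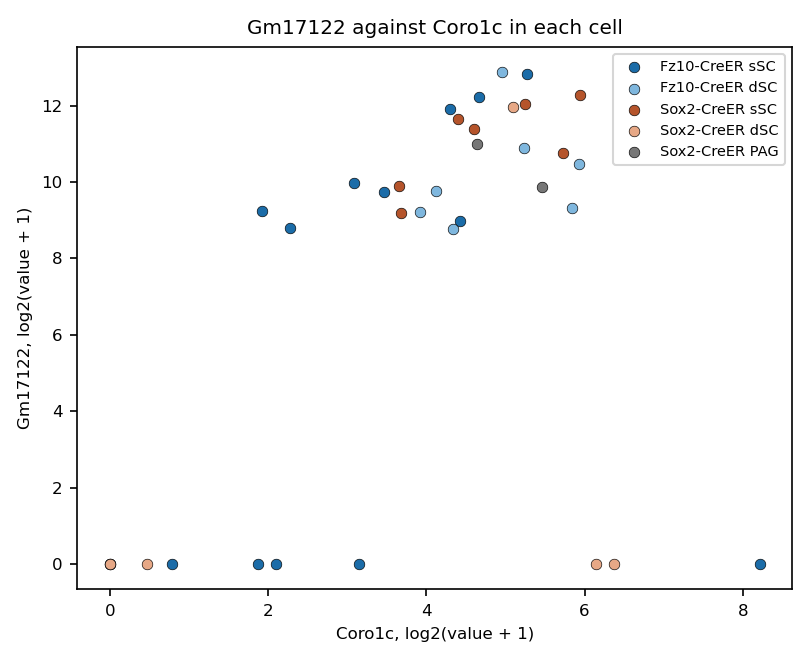
Gm17122 (y axis) against Coro1c (x axis) in each of the 36 cells, both as log2(value + 1), coloured by driver and tissue. The cells without Gm17122 lie mostly at low Coro1c, apart from 3 at the far right of the bottom row.

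These values were set beside other overlapping pairs and other genes. Over 1281 pairs of a noncoding and a coding gene on opposite strands, the median rho across the 36 cells was 0.466 (quartiles 0.252 and 0.690), and 50.7% of pairs had a rho at or above that of Gm17122 and Coro1c. Over the 30 pairs whose noncoding gene lies wholly inside 1 exon of the coding gene, as here, the median was 0.632 (quartiles 0.440 and 0.806) and 70% were at or above it. Gm17122 and Coro1c thus lay in the middle of all pairs, and between the lower quartile and the median of the nested ones. Among all 14902 genes expressed in enough cells, Coro1c stood at place 177 in its likeness to Gm17122, and Gm17122 at place 191 in its likeness to Coro1c. The median gene had rho = 0.126 with Gm17122 and 0.0997 with Coro1c.

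The genes most like Gm17122 over the 36 cells were Pxdn (rho = 0.640), which encodes peroxidasin, Riox2 (0.628), a ribosomal oxygenase gene, Foxj2 (0.622), a forkhead factor gene, Gm9844 (0.620) and Zfp263 (0.616), a zinc finger gene. Those most like Coro1c were Mybbp1a (0.731), which encodes a nucleolar protein, Ano4 (0.713), an anoctamin gene, Fbrsl1 (0.669), Col4a1 (0.649), a type IV collagen chain, and Prlr (0.638), the prolactin receptor. Among the other coronins Coro2a was most like both, with rho = 0.436 to Gm17122 and 0.431 to Coro1c, and Coro1a least, with 0.156 and 0.0712. Detection moved with these values: the number of genes per cell had rho = 0.450 with Gm17122, 0.263 with Coro1c and 0.406 with Coro2a.

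Where it was detected, Gm17122 was at a high level for a gene of its intron length. Its median over the 25 expressing cells was 1413. The 118 genes with an intron total of up to 200 bases, the class that holds Gm17122 with its 144, had a median level of 155. Of these, 23 were at or above the level of Gm17122, itself included. In 14 of the 118, again with Gm17122 included, the lowest value above 0 was at or above that of Gm17122. Genes with no intron had a median level of 12.9969. The median was 88.0 for genes with more than 200 and up to 1000 intron bases, 46.7 for those up to 10000 and 22.1 for those above 10000. Levels in this table thus differed with intron length, highest for genes of short introns, and the part of that in the level of Gm17122 was not tested. Coro1c, with 56659 intron bases, had a median of 20.6 in cells above 0, near the 22.1 of its class.

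**Figure D4:**
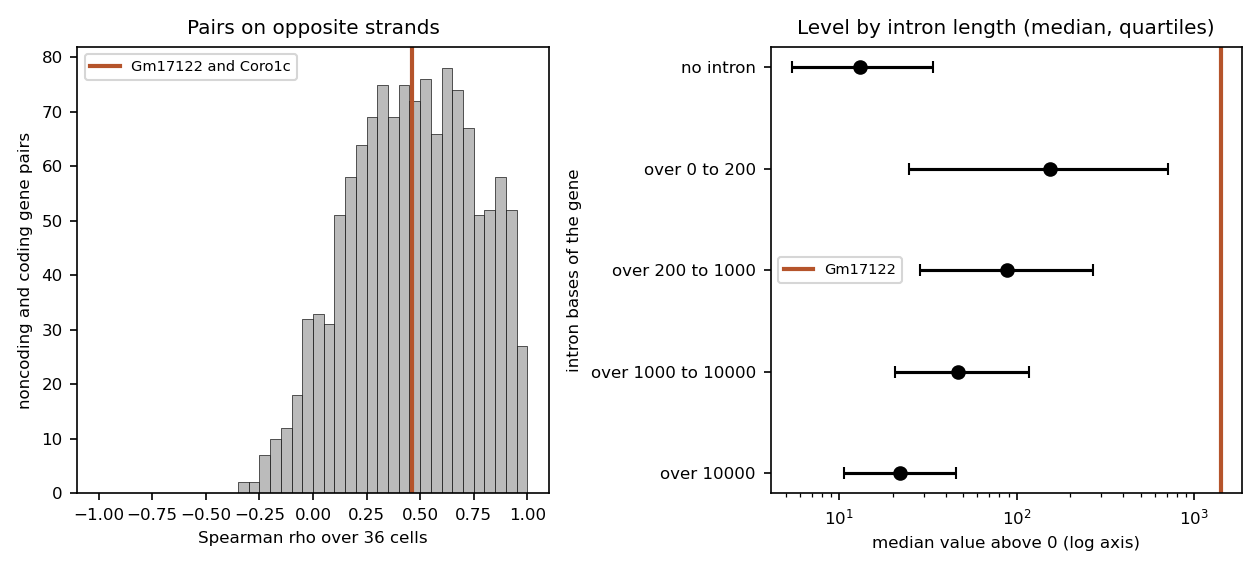
Left: number of overlapping noncoding and coding gene pairs (y axis) by their Spearman rho over 36 cells (x axis), with Gm17122 and Coro1c as the red line at 0.460. Right: median and quartiles of gene levels above 0 (x axis, log scale) by intron bases of the gene (y axis), with the Gm17122 level of 1413 as the red line.

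Siblings gave a comparison of tissues within a clone, where both cells come from 1 progenitor. The deviations of paired siblings correlated by only -0.028 to 0.0933, so the pairs were not shown to be closer than other cells. In the 7 Fz10-CreER clones with both tissues, Coro1c was lower in the sSC cell every time. It had 7.47 in the sSC cell against 16.5 in the dSC sibling of clone A, 0 against 19.3 in clone B and 3.29 against 29.98 in clone C. It had 2.65 in the sSC cell against 14.1 in the dSC cell of clone I, 0 against 36.5 in clone J, 0.722 against 56.1 in clone L and 37.6 against 59.9 in clone U. The difference of log2(value + 1), sSC minus dSC, was -5.23 to -0.66 with a median of -2.85. Of all 14613 genes tested, 1.48% were lower in the sSC cell of all 7 clones and 0.089% were higher. The sSC cell also had fewer genes at 1 or more in 6 of the 7 clones, and the part of this in the result was not tested. Gene counts of the sSC and dSC cells are given here with the Coro1c difference. They were 11898 and 11807 (-0.66) in clone U, 8852 and 9511 (-5.05) in clone L and 10821 and 15472 (-1.04) in clone A. Clone C had 11544 and 15220 (-2.85), and clone I 7652 and 11955 (-2.05). Clone J had 9297 and 12313 (-5.23), and clone B 2661 and 12242 (-4.34). In the 2 Sox2-CreER clones Coro1c went both ways, with 11.5 in the sSC cell against 0.389 in the dSC cell of clone F, and 37.01 against 69.9 in clone Q.

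Gm17122 had the direction of Coro1c in 5 of those 7 Fz10-CreER clones. Since Coro1c was lower in all 7 sSC cells, this only counts the clones with Gm17122 lower in sSC. The direction of Gm17122 by tissue within driver is what it was chosen for, so nothing is read from the count. In the fit over clone means, only 24.9% of all genes were higher in sSC with Fz10-CreER. Gm17122 was at 0 in the sSC cell and present in the dSC cell of clones B, C, I, J and L. The dSC values there were 438, 7567, 595, 1912 and 636. In clone A it had 1000.32 in the sSC cell against 873 in the dSC cell, and in clone U 7309 against 1413, although Coro1c was lower in both sSC cells. In Sox2-CreER clones Gm17122 was 952.5 in the sSC cell against 0 in the dSC cell of clone F, the direction of Coro1c, and 4173 against 0 in clone Q, the opposite one. Clone D shows the same opposition, with Gm17122 at 0 and Coro1c at 82.1 in its dSC cell, against 926 and 43.1 in its PAG cell.

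**Figure D5:**
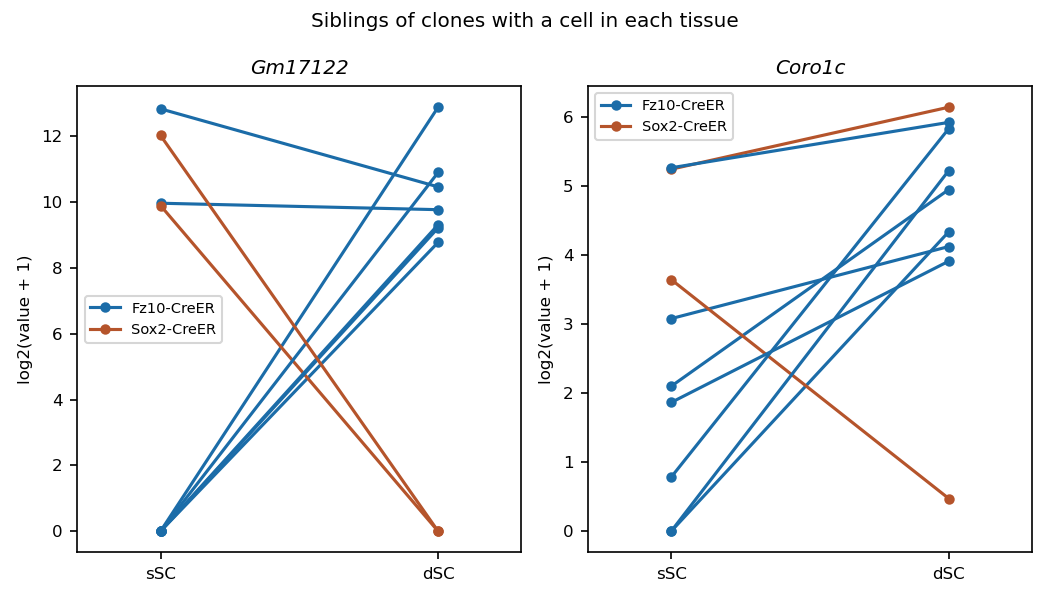
Gm17122 (left) and Coro1c (right) in the sSC cell and the dSC cell of the 9 clones with both, as log2(value + 1) (y axis); each line joins siblings, blue for Fz10-CreER and red for Sox2-CreER. All 7 blue lines for Coro1c are lower at sSC, while 2 of the blue lines for Gm17122 are higher there.

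Siblings often differed in whether Gm17122 was detected: 7 of 18 clones had it in both cells, 11 in 1 cell and 0 in neither. Of those with it in 1 cell, clones B, C, D, F, I, J, L and Q had siblings in different tissues. Clones O, R and S had siblings in the same tissue. Both cells had it in clones K, M, N and T, of the same tissue, and A, H and U, of different tissues. Gm17122 was chosen for its level by tissue and driver, so this count is not read as a trait of siblings. For comparison both siblings expressed Coro1c in 13 clones, Coro1a in 13, Coro1b in 11, Coro2a in 8 and Coro2b in 17. In limma's moderated F test for a clone effect beside tissue, with cells as units, no member passed the adjusted p threshold of 0.05. The adjusted p in that limma test was 0.912 for Gm17122, 0.803 for Coro1c, 0.698 for Coro1a, 0.663 for Coro1b, 0.786 for Coro2a and 0.937 for Coro2b. The test used the same tissue term for both drivers. Gm17122 was chosen for tissue differences of opposite sign in the drivers, which that term cannot take up. Its value in this test therefore cannot show whether siblings share its level, and nothing is read from it. Of all genes 3 passed, or 0.0205%.

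In the fit over clone means, no coronin changed between sSC and dSC at an adjusted p under 0.05, and percent called over all 14613 genes was 0 for Fz10-CreER, 0 for Sox2-CreER and 0.00684 for the difference between the drivers. That single call was Gm17122 itself, from the contrast it was chosen on, and nothing is read from it. At an unadjusted p under 0.05, limma had 1091 genes for Fz10-CreER, 522 for Sox2-CreER and 845 for the difference. Coro1c came nearest in Fz10-CreER, lower in sSC than in dSC by a log2 difference of -2.24 (SE 0.92), with an unadjusted p of 0.0196 and an adjusted p of 0.587 in limma. The median gene had -0.58 in that comparison, and 24.9% of genes were higher in sSC. In Sox2-CreER Coro1c had a difference of 0.79 (SE 1.27, limma adjusted p = 1.00), and the Fz10-CreER minus Sox2-CreER difference was -3.03 (SE 1.57, limma adjusted p = 0.869). Without the sSC cell of clone B the Fz10-CreER value was -1.97 and the median gene -0.32. With a term for each clone it was -3.03 (SE 1.03, limma adjusted p = 0.405). The p-values measure the spread between clones, some of which may come from 1 animal.

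For Gm17122 the same fit gave a log2 difference of -5.35 (SE 1.54) for sSC minus dSC in Fz10-CreER clones and 9.56 (SE 2.14) in Sox2-CreER clones, as a description. The sign for Coro1c was the same as for Gm17122 with both drivers, negative in Fz10-CreER, where 24.9% of all genes were positive, and positive in Sox2-CreER, where 57.3% were. Most genes thus had that sign in each of the comparisons. For Sox2-CreER the sign of Coro1c rested on clone F, without which Coro1c had -0.095.

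Coro1a, the coronin best known in blood cells, was present in 31 of 36 neurons. It had 0, 41.9 and 206 (lowest, median and highest) in Fz10-CreER sSC cells, against 21.7, 47.4 and 204 in Fz10-CreER dSC cells. Sox2-CreER cells had 33.9, 123 and 283 in sSC, against 0, 61.7, 67.5, 101 and 127 in the 5 dSC cells. The groups overlapped throughout, and 4 of the 5 cells at 0 were Fz10-CreER sSC cells. The log2 difference of sSC minus dSC was -1.66 (SE 1.09, limma adjusted p = 0.761) in Fz10-CreER and 1.97 (SE 1.51, limma adjusted p = 1.00) in Sox2-CreER. Between siblings Coro1a was lower in the sSC cell in 5 of 7 Fz10-CreER clones and in 1 of 2 Sox2-CreER clones. The share of all genes at such counts was not taken, and only 24.9% of genes were positive in the Fz10-CreER comparison.

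Since microglia make Coro1a, their markers are given beside it. The summed level of 15 microglia and macrophage markers was 626, 2577 and 8501 (lowest, median and highest) in Fz10-CreER sSC cells, against 1385, 4151 and 13405 in dSC cells. In Sox2-CreER cells it was 383, 809 and 17703 in sSC, against 459, 3208 and 16572 in dSC, and no marker was at 0 throughout any of these 4 groups. All 15 markers had a negative log2 difference in Fz10-CreER, with a median of -1.51, and none passed the test. Over all genes the median there was -0.58, and only 24.9% of genes were positive. In Sox2-CreER 9 markers were negative and 6 positive, with a median of -0.08 beside 0.21 over all genes. Coro1a had rho = 0.251 with the summed markers over 36 cells. Tyrobp, a microglial signalling adaptor, was at 0 in 4 cells, and Coro1a there was 0 in the dSC cell of clone D and the sSC cell of clone J, and 44.9 and 123 in the sSC cells of clone N. Those clone N cells still held other microglia markers, 6 of 15 at 1 or more with a sum of 383 in the cell with Coro1a at 44.9, and 10 of 15 with a sum of 809 in the other. In the other direction, the sSC cell of clone B had Tyrobp at 1870 and Coro1a at 0. That cell had the fewest genes of the series, 2661, and a 0 can be a transcript that was not captured. Coro1a was also at 0 beside Tyrobp at 366 in the sSC cell of clone C. An sSC cell of clone S had Tyrobp at 284 and Coro1a at 0. Of 8 lymphocyte markers Cd8a was at 0 in every cell, and 6 were at 0 in all Sox2-CreER sSC cells and 6 in all Sox2-CreER dSC cells.

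Coro1b, the coronin that restrains Arp2/3, was present in 28 of 36 cells. It had 0, 22.9 and 124 (lowest, median and highest) in Fz10-CreER sSC cells, against 0, 28.5 and 177 in Fz10-CreER dSC cells. Coro1b in Sox2-CreER cells was at 0, 61.2 and 182 in sSC, against 0, 0, 27.8, 46.9 and 212 in dSC. Each of these 4 groups held cells at 0 and cells above 100, and they overlapped over nearly their whole range. The log2 differences were -0.53 (SE 1.26, limma adjusted p = 0.944) in Fz10-CreER and 0.74 (SE 1.75, limma adjusted p = 1.00) in Sox2-CreER. The direction was not stable: the Fz10-CreER value was 0.32 without clone B, and the Sox2-CreER value was -3.52 with a term for each clone.

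Coro2a, a member of the corepressor complex, was the least often detected, at 1 or more in 24 of 36 cells. It had 0, 0 and 81.2 (lowest, median and highest) in Fz10-CreER sSC cells, against 0, 7.93 and 47.9 in Fz10-CreER dSC cells. For Sox2-CreER the values were 0, 1.15 and 32.4 in sSC, against 3.17, 5.10, 6.61, 21.9 and 28.3 in dSC. The median was lower in sSC with both drivers, within ranges that overlapped. The log2 differences were -1.39 (SE 0.99, limma adjusted p = 0.777) in Fz10-CreER and -1.17 (SE 1.38, limma adjusted p = 1.00) in Sox2-CreER. Coro2a was the only one of the 5 coronins with a negative difference for both drivers in this fit, while with a term for each clone Coro1b had -0.06 and -3.52, and without clone F Coro1c was negative for both.

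Coro2b, the brain coronin, was the steadiest of the set and was missing in only 1 of 36 cells, the dSC cell of clone D. It had 1.95, 8.54 and 50.2 (lowest, median and highest) in Fz10-CreER sSC cells, against 5.87, 20.3 and 73.3 in Fz10-CreER dSC cells. Among Sox2-CreER cells Coro2b had 7.17, 14.4 and 45.0 in sSC, against 0, 3.06, 6.73, 15.8 and 41.5 in dSC. The ranges overlapped in each comparison. The log2 differences were -1.17 (SE 0.77, limma adjusted p = 0.761) in Fz10-CreER and 1.33 (SE 1.08, limma adjusted p = 1.00) in Sox2-CreER. Between siblings Coro2b was lower in the sSC cell in 6 of 7 Fz10-CreER clones. The share of all genes at that count was not taken, and only 24.9% of genes were positive in the Fz10-CreER comparison. The rho of Coro2b with the number of genes per cell, 0.611, was above that of the other 5 genes.

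Together, all 5 coronins had a negative log2 difference in Fz10-CreER, with a median of -1.39 beside -0.58 over all genes, although Coro2b had 0.011 after quantile normalization and Coro1b 0.63 with the number of genes as a covariate. In Sox2-CreER 4 of 5 were positive, with a median of 0.79 beside 0.21 over all genes. None passed the test. The difference between the drivers was -3.63 (SE 1.87) for Coro1a, -3.03 for Coro1c, -2.50 (SE 1.33) for Coro2b, -1.27 (SE 2.15) for Coro1b and -0.22 (SE 1.70) for Coro2a, with limma adjusted p from 0.869 to 0.995. Coro6 and Coro7, coronins outside the set, had -1.32 (SE 1.16) and -0.73 (SE 0.87) in Fz10-CreER and -1.22 (SE 1.61) and 0.45 (SE 1.20) in Sox2-CreER. The coronins varied largely apart from each other over the 36 cells: rho between pairs of the 5 ran from 0.0558 for Coro1b with Coro2a to 0.431 for Coro1c with Coro2a.

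Genes whose proteins work with coronins were examined as lists. Of the 10 genes of the Arp2/3 complex, 0 passed the test and 9 had a negative difference in Fz10-CreER, with a median of -0.52 beside -0.58 for all genes. The lowest was Actr2, an actin-related subunit, at -1.30 (SE 0.91). In Sox2-CreER 5 were positive and 5 negative, with a median of 0.07. Of 10 tested genes of cofilins, slingshots and LIM kinases, 6 were negative in Fz10-CreER with a median of -0.22, from Ssh1, a slingshot phosphatase, at -1.39 (SE 1.04) to Cap2, a cyclase-associated protein, at 1.33 (SE 1.12). Of 11 tested nucleation-promoting factors, which switch on Arp2/3, 7 were negative with a median of -0.53, among them Wasf2 at -1.53 (SE 0.97), while Wasf3 had 1.16 (SE 0.81). The 4 actins and profilins had a median of -0.11. In none of these lists did any gene pass the test for either driver or for the difference between them.

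The members had low rank correlations with the transmitter markers of the neurons over the 36 cells. The Spearman correlation with Slc17a6, the vesicular glutamate transporter, ran from 0.0277 for Gm17122 to 0.183 for Coro2b, and that with Gad1, the GABA-making enzyme, ran from -0.0936 for Coro2b to 0.220 for Gm17122. Each of the other 4 member coronins also overlaps a gene on the opposite strand: Bola2 for Coro1a, Rps6kb2 for Coro1b, Gm16731 for Coro2a and n-R5s84 for Coro2b, so the limit on strand holds for them too. Coro1c has another such neighbour, Gm43335, named after its values were seen because it was at 0 in all 36 cells.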

How the data were processed

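Libraries of polyadenylated RNA from single neurons used the SMART-Seq Single Cell PLUS chemistry, according to the labels. The submitters' processing notes name STAR 2.7.9a, R 4.0.3 and GRCm39; no source used here names the counting program, the annotation or the use of strand. The deposited values are a normalised signal, named TPM of exon plus intron by the authors, that sums to 2000000 per cell, so read depth is unknown. Gene symbols matched 52083 of 55359 identifiers. Gene structure came from GENCODE M21 on GRCm38, a different build from the authors', and no coordinate was converted.

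Members, lists and tests were chosen with earlier results of these data known. The named genes are the 6 members, the genes of fixed lists and the 5 genes of highest rho with Gm17122 and with Coro1c; genes on the strand opposite a coronin are named outside that rule, from the annotation. Values were taken as log2(value + 1), so fold changes of low genes are understated. Cells of 1 clone and tissue were averaged, and 4 groups of tissue and driver were fitted with limma 3.58.1 (R 4.3.3; trend and robust) over the 14613 genes that reached 1 in 25% or more of the sSC and dSC cells, two-sided, with Benjamini-Hochberg adjustment at 0.05. All 6 members passed this filter. PAG cells (2) were described only. 1 of the fixed lists is not reported here. The script was tested on simulated data. Clone letters pair siblings by design, as cells of 1 progenitor; the deviations of paired siblings correlated by -0.028 to 0.0933 over 9 clones. Correlations across cells are descriptions. Alternatives were the pseudocounts 0.1 and 10, no filter, quantile normalization, the number of genes as a covariate, limma without trend and robust, clone as a block, and leaving out each clone or the cell with the fewest genes.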

Additional observations from a re-analysis of the deposited data

Results flagged for a closer look

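In the Sox2-CreER dSC group of 4 clones, Gm17122 had a clone mean of 5.98 on the log2(value + 1) scale in clone O and 0 in the other 3 clones. The value comes from 1 of the clone's 2 dSC cells, which had 3959 while its sibling had 0. In the same group Coro1a was 0 in clone D, while the other 3 clones had 5.97 to 6.67. That value is from 1 cell, which had the fewest genes of the group at 1 or more, 7095. Coro1b and Coro2b were also at 0 in it. Clone O for Gm17122 and clone D for Coro1a are each flagged as far from the rest of the group. For Gm17122 this carries no weight: its levels chose it, and with the other clones all at 0 any value above 0 would be picked out. Of 18 groups tested 2 were flagged, and chance flags about 1 in 20 groups, a rate that does not apply to Gm17122. The rate is for normally spread values, so it may not hold for Coro1a either, where a 0 can be a transcript that was not captured. Fz10-CreER sSC, with 11 clones, was not among the groups tested.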

How the results depend on the processing

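No coronin passed the limma threshold under any alternative run, for either driver, their difference or the clone effect. Coro1c in Fz10-CreER stayed negative under all 27 alternatives (-3.03 to -1.07, adjusted p 0.405 to 0.937), while the median of all genes there ran from -1.02 with a pseudocount of 0.1 to 0.11 with the number of genes as a covariate. The rho of Gm17122 with Coro1c stayed positive under all 26 alternatives (0.356 to 0.657). The highest, 0.657, left out the 2 cells farthest from the median of Coro1c on the value scale, and the lowest the 3 cells at 0; both were chosen after seeing the data. Leaving out clones gave 0.418 to 0.571. Signs turned as follows, and the cause was not tested. Quantile normalization gave 0.011 for Coro2b in Fz10-CreER and 0.10 for the driver difference of Coro2a. The gene-number covariate gave 0.63 for Coro1b in Fz10-CreER, and driver differences of 0.23 for Coro1b and 0.79 for Coro2a. The replicate block by clone gave -3.52 for Coro1b in Sox2-CreER and 3.46 for its driver difference; adding the omission of clone B, chosen after seeing the data, gave 1.13 for Coro1b in Fz10-CreER, -3.52 in Sox2-CreER and 4.66 for the difference. The paired fit changed no coronin's call. Leaving out clones one at a time gave -1.10 to 0.32 for Coro1b in Fz10-CreER (turned without B), -0.57 to 2.46 in Sox2-CreER (without D), -2.98 to 0.046 for its driver difference (without D), -0.60 to 0.36 for the driver difference of Coro2a (0.25 without C, 0.000965 without D, 0.36 without I, 0.026 without N) and -0.095 to 1.62 for Coro1c in Sox2-CreER (without F). The count of genes called for the driver difference, 1 as reported, was 0 with a pseudocount of 10, no filter, quantile normalization, the covariate, no trend and robust, the replicate block with or without clone B, and without the sSC cell of clone B, and 0 to 1 over omitted clones (1 without A, K, O, T or U, 0 without any other). Omitted clones gave 0 to 2 calls for Fz10-CreER (1 without L or R, 2 without U) and 0 to 2 for Sox2-CreER (2 without O). The clone effect called 3 genes, against 6 with a pseudocount of 0.1, 58 with no filter, 1 without trend and robust, and 2 to 5 over omitted clones (5 without S). Depth is unknown, so no limit can be set on a value of 0.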
